A study of Mus musculus with 4 samples.

Results

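Of the regions that the study lists as enriched for H3K9me3 in mouse embryonic stem (ES) cells, 2100 autosomal regions overlapped no protein-coding gene and lay in noncoding genes alone. They were taken as the regions of chromosomes 1 to 19 that shared no base with a gene of protein-coding type in GENCODE M1, the annotation of the genome build used for the list (mm9, NCBIM37). The 2100 regions were 6.50% of the 32295 autosomal H3K9me3 regions (95% Wilson interval 6.24% to 6.78%) and covered 2.44 Mb of 36.1 Mb, or 6.78% of the length. All 2100 lay in an annotated gene, as the authors' choice of bins in genes largely fixes. The whole list held 32502 regions, with a further 207 on chromosomes X and Y.

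ChIP-seq had been carried out with antibodies to H3K9me3 and H3K36me3 in WT ES cells and in targeted H3.3 G34R ES cells, both of strain 129S1/SvImJ and below passage 20, giving 4 libraries in 4 groups of 1. According to the study's methods, the G34R cells carry the glycine to arginine change in a single copy of H3f3a, expressed from the endogenous promoter as a targeted clone, while the H3f3b gene of both lines is unmodified. For each mark the authors provide 1 list of positions that combines WT and H3.3 G34R cells, with no read value for either. Whether a region was enriched in WT cells, in G34R cells or in both therefore cannot be told apart, library depth is unknown, and no replicate exists.

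H3K9me3 is a mark of silent chromatin and of repeated elements, and in ES cells it also marks zinc finger gene clusters and imprinted loci. H3K36me3 is laid down across the body of transcribed genes by enzymes that travel with RNA polymerase II. Long intergenic noncoding RNAs (lincRNAs) are transcribed from genes of their own, antisense RNAs run against a gene on the other strand, pseudogenes are disabled copies of genes, and processed transcripts are long RNAs without a coding frame that fit none of the other long classes.

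The sequence of these regions is shown for the widest region that lay in 1 class alone, as the central 200 bases of each on the plus strand of NCBIM37, with every CpG dinucleotide in capitals because CpG density is compared further on. The 5′ to 3′ sequences came from chr1:85312301-85312500 in the lincRNA gene Gm2619, from chr1:87436901-87437100 in the antisense gene Gm7592, from chr4:145026701-145026900 in the processed transcript gene Gm13227 and from chr17:36256801-36257000 in H2-T10, a histocompatibility gene that the annotation holds as a pseudogene.
Gm2619: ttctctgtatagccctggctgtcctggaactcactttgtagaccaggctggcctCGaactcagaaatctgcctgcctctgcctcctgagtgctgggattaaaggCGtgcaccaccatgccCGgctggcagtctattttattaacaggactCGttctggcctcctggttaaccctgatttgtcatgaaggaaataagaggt
Gm7592: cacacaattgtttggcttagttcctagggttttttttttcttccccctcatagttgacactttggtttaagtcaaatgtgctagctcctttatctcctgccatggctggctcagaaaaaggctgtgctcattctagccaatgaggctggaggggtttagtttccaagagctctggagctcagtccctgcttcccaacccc
Gm13227: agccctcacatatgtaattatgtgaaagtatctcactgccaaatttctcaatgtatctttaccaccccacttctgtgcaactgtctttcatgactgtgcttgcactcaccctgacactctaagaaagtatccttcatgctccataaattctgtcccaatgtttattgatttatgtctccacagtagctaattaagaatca
H2-T10: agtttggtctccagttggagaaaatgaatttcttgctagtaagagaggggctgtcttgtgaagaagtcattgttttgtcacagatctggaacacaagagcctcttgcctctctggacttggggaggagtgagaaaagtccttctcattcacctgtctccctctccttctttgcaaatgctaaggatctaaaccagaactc
The Gm2619 sequence had 4 CpG dinucleotides and a G+C content of 51.5%, and the other sequences had 0 CpG at 47.5%, 38.5% and 45.0% G+C in the order shown. The central 50 bases of these regions occurred 25 times in the genome for Gm2619, 8 times for Gm7592, 3 times for H2-T10 and once for Gm13227.

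Most of the regions lay in lincRNA genes, as did most of the noncoding-only sequence. Of 281832 bins of 200 bp in noncoding genes only, 188231 were in lincRNA genes alone. Of the 2100 regions, 1550 lay in lincRNA genes alone, a share of 73.8% (71.9% to 75.6%), 309 in antisense genes alone (14.7%, 13.3% to 16.3%) and 117 in processed transcript genes alone (5.57%, 4.67% to 6.64%). Only 3 regions lay in pseudogenes alone, 5 in small RNA genes and 6 in immunoglobulin or T cell receptor segments. A further 110 regions touched genes of several classes, most often a lincRNA gene and a pseudogene (29 regions), an antisense gene and a lincRNA gene (20) or a lincRNA gene and a processed transcript gene (17). Of the 3 pseudogene regions, 1 of 600 bp lay in Nlrp1c-ps, a pseudogene of the inflammasome family, and the others, of 600 and 2200 bp, in H2-T10.

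**Figure D1:**
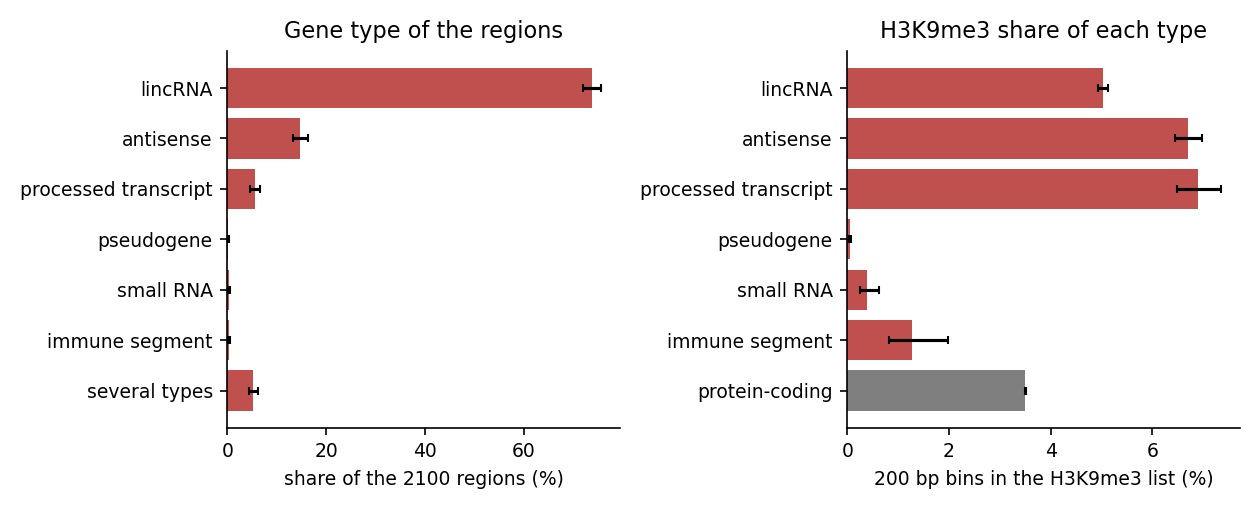
Left, share of the 2100 regions in each noncoding gene type alone or in several types (%). Right, share of the autosomal 200 bp bins of each type alone that lay in the H3K9me3 list (%), with protein-coding genes in grey. Bars start at 0 and error bars are 95% Wilson intervals. lincRNA genes held 73.8% of the regions, while antisense (6.71%) and processed transcript bins (6.91%) were in the list more often than lincRNA bins (5.03%).

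Set against how much sequence each type has, H3K9me3 was more frequent in long noncoding genes than in protein-coding genes. Over all autosomal genes, 3.58% of 5030668 bins of 200 bp were in the H3K9me3 list. Of the 281832 bins in noncoding genes only, 4.92% were in it (4.84% to 5.00%), against 3.50% of the bins of protein-coding genes (3.49% to 3.52%), a difference of 1.42 percentage points (Newcombe interval 1.34 to 1.50). Neighbouring bins of 1 region are not independent, so these intervals cover counting error only and are narrower than the true uncertainty. Of these noncoding bins with H3K9me3, 88.1% were in the 2100 regions and the rest in regions that reached into a coding gene.

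The gene types differed widely. The share was 5.03% (4.93% to 5.13%) of lincRNA bins, 6.71% (6.45% to 6.98%) of antisense bins and 6.91% (6.48% to 7.35%) of processed transcript bins, each for bins in that type alone. The antisense and processed transcript intervals overlapped each other, and neither overlapped the lincRNA interval. Bins of pseudogenes without a long noncoding gene were nearly absent from the list, with 19 of 35768 (0.0531%), whereas 290 of the 1317 pseudogene bins inside a long noncoding gene were in it (22.0%, 19.9% to 24.3%). Small RNA bins without a long noncoding gene gave 17 of 4360 (0.390%). According to the methods, bins had to lie in UCSC annotated genes to enter the list, and the part of that choice in the low pseudogene and small RNA shares was not tested. Of the pseudogene bins without a long noncoding gene, 42.9% had central 50 bases that occur more than once in the genome, against 6.77% of the coding bins. With bins of the long noncoding types only, the share was 5.75% (5.66% to 5.84%).

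The higher share of noncoding-only bins was found on 16 of the 19 autosomes, on 15 of them with intervals that did not overlap. On chromosome 8 the share was 12.7% in noncoding genes and 6.84% in coding genes, on chromosome 17 it was 8.30% and 4.79%, and on chromosome 1 it was 8.16% and 3.06%. Chromosome 7 went the other way, with 3.55% against 4.14%, and on chromosomes 2 and 18 the noncoding share was lower with overlapping intervals. For long noncoding bins alone, the share was above that of coding bins on 18 of the 19 autosomes.

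**Figure D2:**
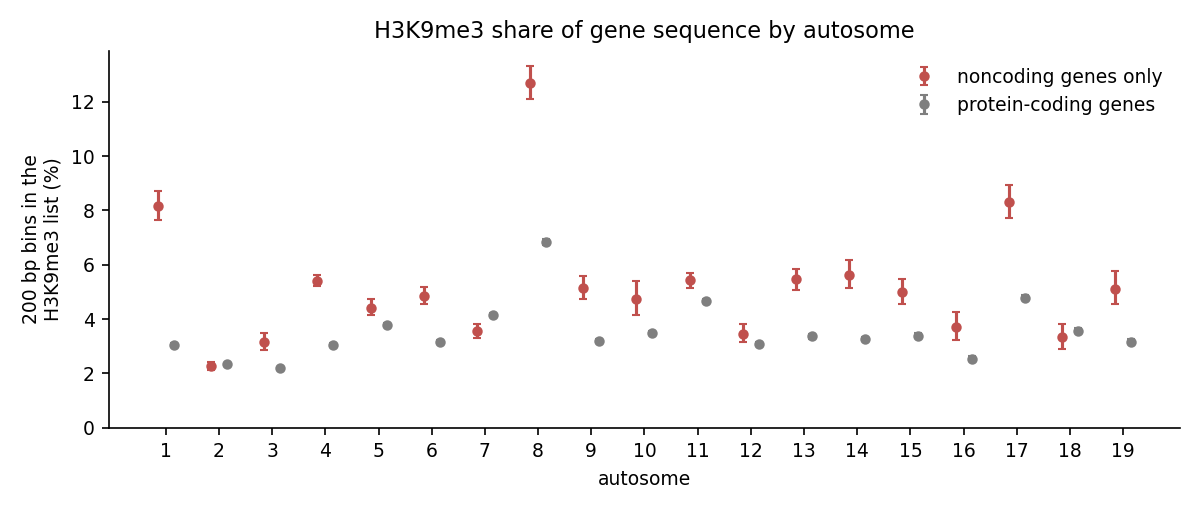
Share of the 200 bp bins of each autosome (%) in the H3K9me3 list, for bins in noncoding genes only (red) and bins of protein-coding genes (grey), with 95% Wilson intervals. The noncoding share reached 12.7% on chromosome 8 and lay above the coding share on 16 of 19 autosomes.

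Base composition moved with the mark in long noncoding and in coding genes. In long noncoding introns the share in the list went from 2.98% of bins with under 35% G+C to 22.3% of bins with 60% or more, and in protein-coding genes from 1.27% to 19.8%. Within each of the 7 classes of G+C, long noncoding introns lay above protein-coding genes and long noncoding exons lay above both, for example 8.35%, 6.07% and 3.77% for exons, introns and coding genes between 45% and 50% G+C. In all, 9.25% of exon bins (8.89% to 9.63%) and 5.37% of intron bins (5.28% to 5.47%) of long noncoding genes were in the list. The exon bins had a mean G+C content of 46.1% and the intron bins of 42.4%.

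**Figure D3:**
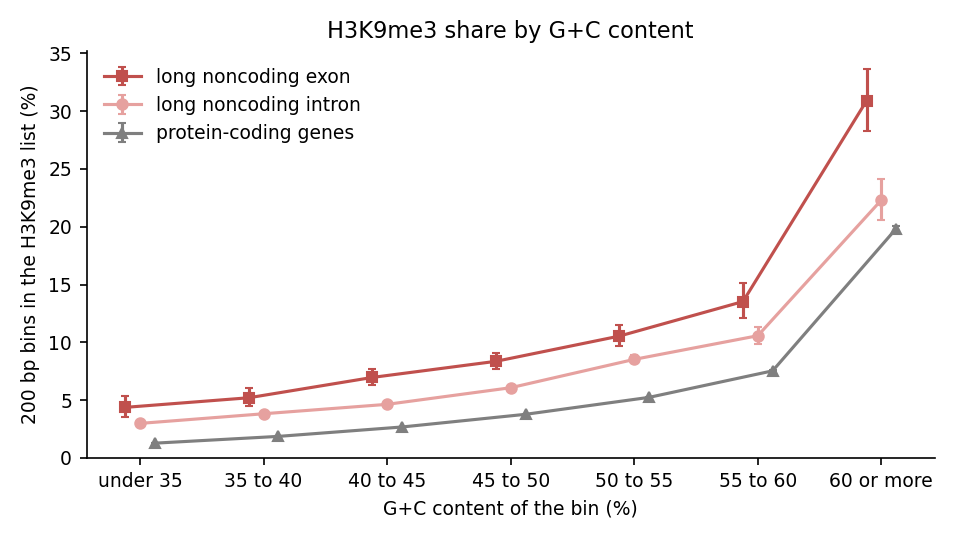
Share of 200 bp bins in the H3K9me3 list (%) by G+C content of the bin (%), for exons and introns of long noncoding genes outside coding genes and for protein-coding genes, with 95% Wilson intervals. At 60% G+C or more the shares were 30.9% for exons, 22.3% for introns and 19.8% for protein-coding genes.

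The mark was more frequent at the starts of long noncoding genes than in their bodies. Within 1 kb of a long noncoding start and away from any coding start, 9.55% of the bins were in the list (8.98% to 10.2%), against 5.36% (5.26% to 5.45%) of bins over 1 kb from both kinds of start. Bins near both kinds of start gave 13.3%, and bins near a coding start only gave 16.9%. Away from both kinds of start, exon bins were still in the list more often than intron bins, with 8.14% (7.74% to 8.56%) against 5.12% (5.03% to 5.22%). The start bins were also richer in G+C, with a mean of 47.2% against 42.5%, and the part of base composition in the difference was not tested.

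The 523 long noncoding genes of at least 10 kb that held 1 of the regions were cut into 10 parts of equal length. Part 1, at the start, had 10.4% of its bins in the list (9.98% to 10.9%) and part 2 had 8.76% (8.34% to 9.21%). Parts 3 to 10 lay between 6.92% and 8.08%. Without chromosome 4, part 1 gave 10.5% and part 2 gave 7.34%, so the decline after the start was steeper. These genes were taken because they hold the mark, so the profile shows where in a gene it lay and not how often.

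**Figure D4:**
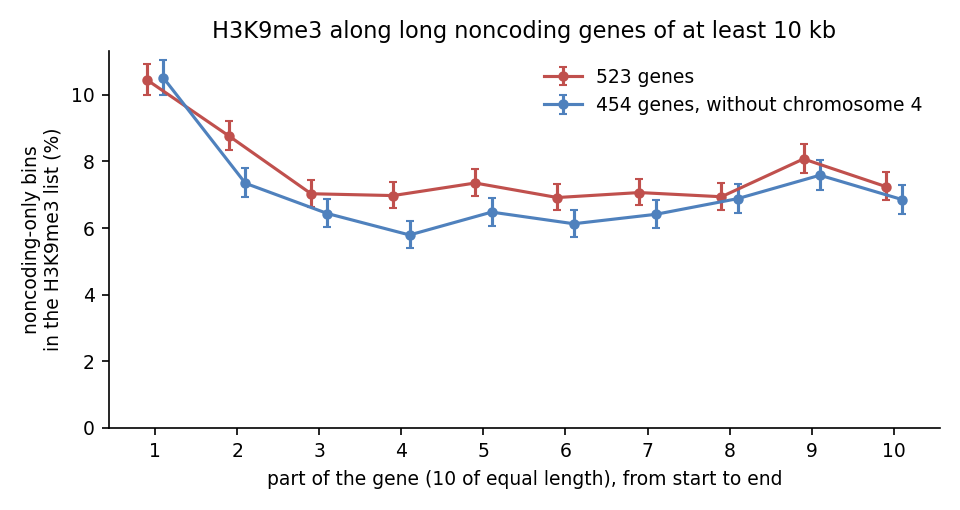
Share of noncoding-only bins in the H3K9me3 list (%) in each of 10 equal parts of long noncoding genes of at least 10 kb with at least 1 of the regions, from start to end, for 523 genes (red) and for 454 genes without chromosome 4 (blue), with 95% Wilson intervals. Both curves are highest in part 1, at 10.4% and 10.5%.

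In all, 833 noncoding genes held at least 1 of the regions, 420 of them exactly 1 and 34 of them at least 10. Among autosomal genes of all types, 30.0% were touched by an H3K9me3 region. For lincRNA genes, 545 of 1989 held one of the 2100 regions (27.4%, 25.5% to 29.4%), for antisense genes 163 of 1345 (12.1%, 10.5% to 14.0%) and for processed transcript genes 51 of 335 (15.2%, 11.8% to 19.5%). The rule limits these counts, since only 1698 lincRNA, 609 antisense and 157 processed transcript genes have a bin free of coding genes. Among those, 32.1% (29.9% to 34.4%), 26.8% (23.4% to 30.4%) and 32.5% (25.7% to 40.2%) held a region, in that order. Counting any H3K9me3 region, coding neighbours included, 37.1% of lincRNA, 29.0% of antisense, 31.9% of processed transcript and 41.4% of protein-coding genes were touched. Gene length moved with these counts: 8.05% of lincRNA genes under 2 kb and 72.2% of those of 50 kb or more held one of the regions. At 50 kb or more, any H3K9me3 region was found in 78.8% of 212 lincRNA, 69.8% of 53 antisense, 95.5% of 22 processed transcript and 75.3% of 4623 protein-coding genes.

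Compared with the 30195 autosomal H3K9me3 regions in coding genes, the noncoding regions had the same width and a lower G+C content. The median width was 800 bp in both sets, with quartiles of 600 and 1200 bp, and 41.8% of the noncoding and 43.4% of the other regions had the minimum width of 600 bp, a difference of -1.61 points (-3.78 to 0.58). No region of the list is narrower, and the part of the authors' width limit in this was not tested. The median G+C content was 46.1% (45.8% to 46.3%) against 47.8% (47.7% to 47.9%), and the observed to expected ratio of CpG was 0.201 (0.194 to 0.208) against 0.229 (0.227 to 0.231). Regions with 60% G+C or more made up 2.33% of the noncoding set and 8.75% of the other, a difference of -6.42 points (-7.07 to -5.62) that had the same sign on 18 of 19 autosomes. Of all bins, 1.44% in noncoding genes only and 2.11% in coding genes had 60% G+C or more, so noncoding genes hold less of such sequence. By the way they were chosen the noncoding regions lay farther from coding starts, with 3.43% within 1 kb of one against 13.8%, and 26.0% of them touched a noncoding exon against 2.39%.

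Repeated sequence was more frequent in the noncoding regions than in the regions of coding genes, as it was in noncoding genes at large. Of all bins, with or without H3K9me3, 15.2% of those in noncoding genes only, 10.98% of those in long noncoding genes and 6.77% of those in coding genes had central 50 bases that occur more than once. The share in the 2100 regions was near that of long noncoding genes, so nothing particular to the regions is read from it. Their central 50 bases occurred more than once in the genome for 242 of 2100 (11.5%, 10.2% to 12.96%), against 4.95% of the other regions (4.71% to 5.20%), and in over 5 copies for 62 regions (2.95%) against 1.43%. The first difference was 6.58 points (5.26 to 8.03) and held on 12 of 19 autosomes. A single window of chromosome 4 carried 82 of the 242, and without it the share was 8.08%. The reads had been aligned with up to 5 places allowed, so part of a repeated region can rest on reads from its other copies.

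The hexamer TGCCGC is bound in its methylated form by ZFP57, a zinc finger protein that keeps H3K9me3 at imprinted control regions. TGCCGC or its complement GCGGCA (both strands searched) was present in the central 600 bases of 157 of 2100 regions (7.48%, 6.43% to 8.68%) and of 11.8% of the other regions (11.5% to 12.2%). Of all 600-base windows, 3.78% in noncoding genes and 4.54% in coding genes held it. A match is a description of the letters and not of a bound site.

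The 2100 regions overlapped H3K36me3 less often than the H3K9me3 regions of coding genes did. Over all bins, with or without H3K9me3, H3K36me3 was also the less frequent in noncoding genes, with 0.918% of noncoding-only and 5.86% of coding bins. The part of this background in the lower overlap was not tested. Of the 2100 regions, 110 shared at least 1 base with a region of the H3K36me3 list (5.24%, 4.36% to 6.28%), against 2609 of the 30195 other regions (8.64%, 8.33% to 8.96%). The difference was -3.40 points (-4.33 to -2.32), but only -1.21 points with 50% reciprocal overlap and -1.30 points when counted in 200 bp bins. In the count of regions, the noncoding share was the lower on 18 of 19 autosomes, chromosome 12 being the exception with 11.1% against 9.52%. Counted over length, 7.99% of the bases of the 2100 regions were in the H3K36me3 list (195 kb of 2444 kb), against 9.39% in the other regions. By class, the share of regions was 4.26% in lincRNA (66 regions), 4.21% in antisense (13) and 11.1% in processed transcript genes (13, 6.61% to 18.1%), and 15.5% (9.88% to 23.4%) in the 110 regions with several classes. Single genes carried much of these counts: Gm13227 and 3110053B16Rik held 12 of the 13 processed transcript overlaps, Gm16889 held 28 of the 66 lincRNA overlaps, and the gene 2610005L07Rik on chromosome 8 held 5 of the 17 in several classes. Without Gm13227 and 3110053B16Rik, 1 of 97 processed transcript regions overlapped H3K36me3 (1.03%, 0.182% to 5.61%), so no difference between the classes is read from these shares.

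Much of this overlap came from a few repeated loci. The 1 Mb window of chromosome 4 with the most regions held 37 of the 110, with 30.8% of its regions overlapping H3K36me3, and all 6 regions of a locus at chr8:19858001-20020600 overlapped it. These 2 places accounted for 122 kb of the 195 kb shared by both marks. Without both, 3.39% of the regions overlapped H3K36me3 (2.68% to 4.29%), and among regions whose central 50 bases occur once the share was 3.98% against 8.31% in the other regions.

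Seen from the other mark, H3K36me3 was scarce in noncoding genes and coincided there with H3K9me3 to a large extent. It covered 0.918% of the noncoding-only bins and 5.86% of the coding bins. Yet 1287 of the 2587 noncoding-only bins with H3K36me3 were also in the H3K9me3 list (49.7%, 47.8% to 51.7%), against 5.56% of the coding bins with H3K36me3 (5.47% to 5.64%). Without chromosome 4 these shares were 38.1% and 5.25%, and with bins whose central 50 bases occur once they were 34.4% and 5.10%. The locus of chromosome 8, with 53.8 kb shared by both marks, is still part of the 49.7% and the 38.1%. Shares without that locus were not computed, so these values are not read as typical of noncoding genes. Noncoding-only bins in the H3K9me3 list had H3K36me3 in 9.28% of cases and those outside it in 0.485%, while the coding values were 9.29% and 5.73%. Among bins with H3K9me3, noncoding-only and coding bins therefore had H3K36me3 about equally often over all autosomes. These noncoding-only bins include some from H3K9me3 regions that reach into a coding gene. In the bins of the regions that overlapped no coding gene, the share was lower, at 7.99% (7.53% to 8.49%). Without chromosome 4, the shares of all noncoding-only and all coding bins with H3K9me3 were 6.17% and 8.60%. Both lists come from WT and H3.3 G34R cells together, so the marks need not lie on the same sequence in the same cells.

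The regions were unevenly spread along the autosomes. They fell into 567 windows of 1 Mb, 212 of which held a single region, while 39 windows with at least 10 regions held 678 of the 2100. How noncoding-only sequence is spread over these windows was not counted, and its part in the uneven counts was not tested. The median gap to the nearest H3K9me3 region was 1400 bp (quartiles 200 and 10000 bp), against 2400 bp for the regions of coding genes. By chromosome, the count ran from 30 on chromosome 18 to 322 on chromosome 4, and per Mb of noncoding-only sequence from 19.1 on chromosome 2 to 68.8 on chromosome 8 with a median of 38.9.

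The densest window was chr4:146000001-147000000, with 120 regions over 196 kb, or 5.71% of all the regions. It holds the lincRNA genes Gm16889 and Gm17317, which run on opposite strands through each other, and has 82 regions with repeated central bases. Gm16889 (chr4:146392344-146866310, minus strand, 474 kb) had 83 regions over 158.6 kb, which was 45.4% of its noncoding-only bins, and 30 of the 83 overlapped H3K36me3. Gm17317 (chr4:146510387-146831128, plus strand) had 69 regions over 142.2 kb, or 59.4% of its bins. All 69 lie in Gm16889 too, so the regions cannot be assigned to 1 of the pair. Next was chr11:112000001-113000000 with 38 regions of 30.8 kb in all, none with H3K36me3 and 1 with repeated central bases, in BC006965 (18 regions), 2610035D17Rik and Gm11681 among others. 2610035D17Rik runs past the end of the window and has 26 regions in all over 13.3% of its bins. The third window, chr8:77000001-78000000, held 27 regions, all of them in Gm11033, a lincRNA gene of 243 kb with 16.3% of its bins in the list and no H3K36me3.

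The widest region measured 43200 bp, at chr8:19859601-19902800, and 42400 bp of it were also in the H3K36me3 list. It lies in the processed transcript gene 2610005L07Rik, which RefSeq holds as a transcribed pseudogene, and in the lincRNA genes 6820431F20Rik, AC152164.1 and Gm17279. The second, of 21400 bp at chr8:19999201-20020600, lies in 3 of the same genes and shared 1800 bp with H3K36me3. The gene 2610005L07Rik is 157 kb long, and 54.8% of its 659 noncoding-only bins were in the H3K9me3 list. Of those, 67.6% were also in the H3K36me3 list. All 5 regions of this gene had repeated central bases. The other wide regions were 14400 bp in Gm2619 on chromosome 1, with 1200 bp shared, 13400 bp in Gm11033 and 13000 bp in AI854517 on chromosome 7, the last 2 with no H3K36me3 and central bases that occur once.

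Among antisense genes, Gm7592 had the most bins in the regions, 171 of its 214 noncoding-only bins (79.9%) in 11 regions. RefSeq holds Gm7592 as protein-coding. BC023719, in the histocompatibility complex of chromosome 17, followed with 167 bins in 19 regions (53.2%), of which 3 overlapped H3K36me3. Gm15614 on chromosome 5 had 101 bins (21.6%) and Gm16090 on chromosome 18 had 53 bins (17.5%). The 5 regions of Gm16090 had a median G+C content of 65.1%, the highest among the genes named for their class.

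Processed transcript genes after 2610005L07Rik were Gm13227 on chromosome 4, with 103 bins (51.8%) of which 77.7% were also in the H3K36me3 list, and 3110053B16Rik on chromosome 12 with 91 bins (39.4%) of which 14.3% were. Vmn2r-ps54, a gene of the vomeronasal receptor family, had 58 bins (19.7%) and Gm16551 had 51 (67.1%), both without H3K36me3. Among pseudogenes, H2-Bl, a histocompatibility pseudogene inside BC023719, had 56 bins in 7 regions (57.7%). Gm13301 on chromosome 4 had 29 bins, Gm7281 on chromosome 1 had 20, Gm13135 in the chromosome 4 window had 16 of its 17 and C920025E04Rik in the histocompatibility complex had 15 of its 17. RefSeq holds C920025E04Rik as protein-coding. All 20 regions in these 5 pseudogenes of the annotation also lay in a long noncoding gene.

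Of the 56 genes on fixed lists of noncoding genes, Mcts2 and Gm7334 are protein-coding in the annotation. In it, 31 are autosomal noncoding genes, and 8 of these held a region, against 30.0% of all autosomal genes touched by any H3K9me3 region. They were 3 of 7 imprinted genes, 5 of 12 other long noncoding genes and 0 of 12 miRNA host genes and single miRNA genes of clusters. The lists named 13, 29 and 14 genes in that order. Most of those not counted have no entry in the annotation under the listed name, among them the imprinted Kcnq1ot1, Peg13, Snhg14 and Zdbf2linc. The Mir302 genes among the miRNA genes have no bin free of coding genes, so they could hold no region. The imprinted genes H19 and Meg3 are expressed from the maternal allele and Airn from the paternal allele. The lists used here do not separate alleles.

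H19 (chr7:149761434-149764048, minus strand) had 1 region of 2000 bp, chr7:149762201-149764200, which ran from -0.152 to 1.85 kb relative to the gene's start and covered 10 of its 14 bins. Its G+C content was 58.2%, and it did not overlap H3K36me3. Meg3 (chr12:110779211-110809936, plus strand) had 4 regions. The widest, 3400 bp at chr12:110779201-110782600, lay at the start of the gene without H3K36me3, while the other 3, of 600, 600 and 1000 bp, lay 8.79, 12.0 and 21.8 kb downstream and were each wholly in the H3K36me3 list. Its neighbours Rian and Mirg, in the same imprinted cluster, had no H3K9me3 region in 290 and 74 bins.

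Airn (chr17:12934177-13052988, plus strand) had 11 regions of 600 to 2200 bp and none with H3K36me3. They lay between 28.6 and 92.4 kb from its start, in the portion not shared with a coding gene, and took 50 of its 355 noncoding-only bins (14.1%). The widest, chr17:12962801-12965000, lay 271 bp from a coding start. It was the region of an imprinted gene with the most TGCCGC, with 1 match in all its length, and the 200 bases around it (chr17:12964103-12964302, plus strand, the match in capitals) are shown because no other imprinted region held the word.
Airn: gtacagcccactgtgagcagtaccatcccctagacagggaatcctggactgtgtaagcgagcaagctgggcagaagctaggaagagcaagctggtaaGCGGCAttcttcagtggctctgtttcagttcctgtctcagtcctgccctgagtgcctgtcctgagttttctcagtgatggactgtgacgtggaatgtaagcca
Nespas and Nctc1 held none of the regions, although an H3K9me3 region that reaches into a coding gene did touch Nespas.

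**Figure D5:**
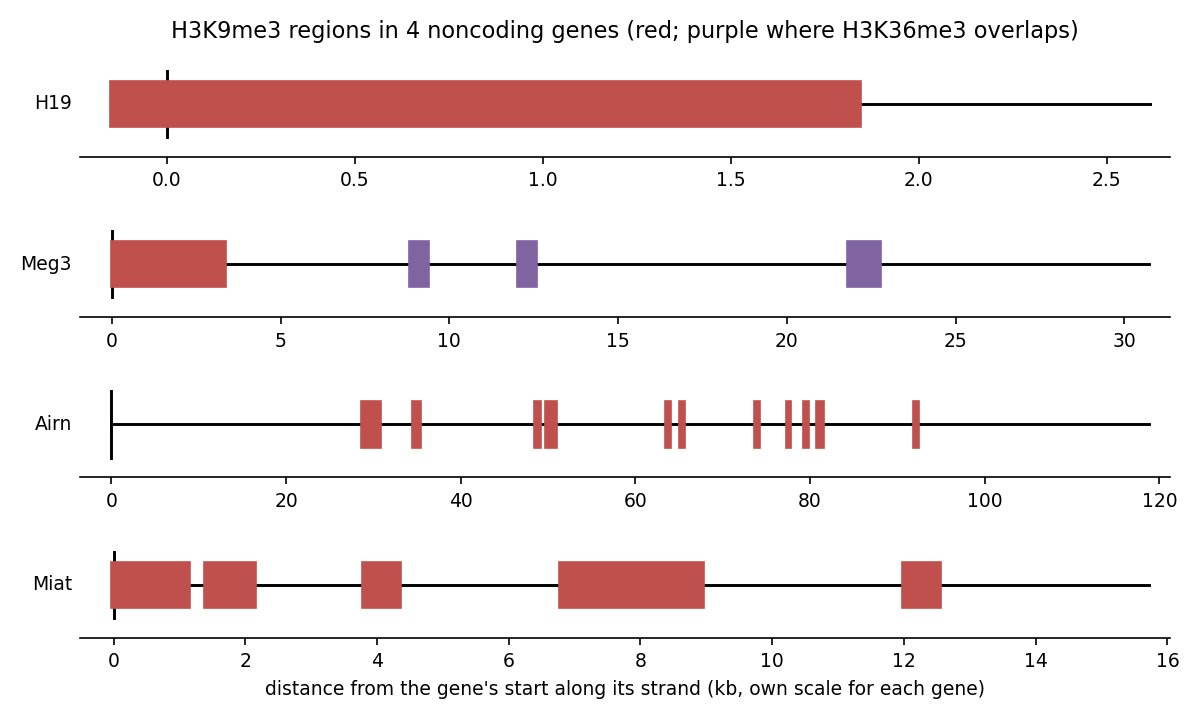
Position of the H3K9me3 regions along H19, Meg3, Airn and Miat, as distance from the gene's start (kb, black tick at 0) with a scale of its own for each gene. Red boxes are regions without H3K36me3 and purple boxes regions that overlap it; the 3 downstream regions of Meg3 are purple and the boxes at the starts of H19, Meg3 and Miat are red.

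Regions at H19 and Meg3 contained miRNA genes. Mir675 lies inside the H19 region and Mir770 inside the region 21.8 kb into Meg3. Dio3os, antisense to the deiodinase gene Dio3 in the cluster of Meg3, was noticed after its values were seen: it had 1 region of 2400 bp at chr12:111514001-111516400 over 12 of its 15 bins, and that region contains Mir1247. These were the miRNA genes of the regions with a mature sequence in RefSeq (GRCm38.p6, sequences only), 3 of 12 miRNA genes touched among 1468. Their mature sequences are shown with the seed, bases 2 to 8, in capitals.
miR-675-5p: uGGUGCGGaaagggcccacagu
miR-675-3p: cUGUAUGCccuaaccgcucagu
miR-770-5p: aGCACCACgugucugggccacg
miR-770-3p: cGUGGGCCugacguggagcugg
miR-1247-5p: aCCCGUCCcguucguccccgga
miR-1247-3p: cGGGAACGucgagacuggagc
No 2 of these 6 sequences share a seed. Among other small RNA genes, regions touched 5 of 1458 snoRNA, 2 of 1331 snRNA, 4 of 458 misc RNA and 0 of 307 rRNA genes. In all, 0.458% of 5022 small RNA genes held one of the regions and 2.15% were touched by any H3K9me3 region, against 30.0% of genes of all types. Only 2910 of the small RNA genes have a bin free of coding genes, and all 5022 are under 2 kb long. Of other genes under 2 kb, any H3K9me3 region touched 10.6% of protein-coding genes, 12.3% of lincRNA genes and 3.93% of pseudogenes.

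Of the listed long noncoding genes that are not imprinted, Miat, a nuclear RNA gene, had the highest share, with 5 regions over 27 of its 79 bins (34.2%) and 1 of them across its start with 60.1% G+C. Dlx6os1, the antisense partner of the Dlx6 homeobox gene, had 4 regions over 22.6% of its bins, the widest of 4200 bp, and Six3os1, beside the Six3 homeobox gene, had 1 region of 2600 bp. Pvt1, downstream of Myc, had 7 regions over 1.70% of 1702 bins and Sox2ot, which contains the Sox2 gene, had 11 over 1.29% of 2879 bins, both below the 3.58% of all genic bins. None of the regions in these 5 genes overlapped H3K36me3, and all had central bases that occur once. Malat1, Neat1, Gas5, Snhg1, Snhg3, Snhg12 and Rmst held none, nor did Mir17hg and the miRNA genes of the Mir290 and Mir302 clusters. Snhg3 has only 1 bin free of coding genes, and the Mir302 genes have none.

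The gene types were checked against RefSeq by symbol and synonym, which matched 539 of the 833 genes. RefSeq calls 436 of them lncRNA, 33 pseudogene and 21 transcribed pseudogene, but 39 protein-coding. The 39 genes are touched by 105 of the 2100 regions (5.00%, 4.15% to 6.02%), which are noncoding by GENCODE M1 and not by the other annotation. Without them, 5.41% of the remaining regions overlapped H3K36me3.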

How the data were processed

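Mouse ES cells (WT and H3.3 G34R) were assayed by ChIP-seq for H3K9me3 and H3K36me3, 1 library each. The authors aligned reads to mm9 with Bowtie 1.0.0 (up to 5 places), removed duplicates, counted reads in 200 bp bins in SeqMonk, scaled them to library size, matched the distributions, kept bins in UCSC genes above a high percentile in WT or G34R cells and merged them with bedtools 2.20.1, as their methods and processing notes state. Their methods also exclude merged regions by width and those with the most extreme read counts. The width limit is worded there as removing wide regions, while the deposited lists, which hold positions only, begin at 600 bp and reach far above it, so how it was applied is not settled.

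Regions were compared with GENCODE M1 on NCBIM37, whose chromosome 13 ends where the lists end (120284312). Antisense genes were recognised by transcript type. Bins with unknown bases were left out. Exact copies of central 50-base words were counted on both strands. Shares have 95% Wilson intervals and differences Newcombe intervals, which cover counting error only, and no p-value was computed. Python 3.11.15, numpy 2.4.6, pandas 2.3.3 and numba 0.67.0 were used, and the routines were tested on simulated data. Named genes are the 5 with the most bins per long class and among pseudogenes, the 5 widest regions, the 3 densest windows of 1 Mb and the fixed lists. Where a miRNA cluster was listed, its members were looked up one by one. Chromosomes X and Y were left out, and the alternatives tried are in the closing section. The regions and lists were chosen with earlier results of these data known.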

Additional observations from a re-analysis of the deposited data

Results flagged for a closer look

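Chromosome X is outside the autosomal comparisons. Of its 190 H3K9me3 regions, 22 overlapped no protein-coding gene, in 16 noncoding genes, and were set aside because they are data that no comparison uses. Tsix, the antisense gene of Xist, was touched by 4 of them, 1 of which also touched Xist, the RNA that silences an X chromosome, and 4933407K13Rik by 3. None of the 17 regions on chromosome Y was of this kind. The lists hold no control sample, and no explanation was weighed.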

How the results depend on the processing

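Of 73 alternative values for 15 results, 36 stayed within the interval of the reported value (counts within 1.5 times). None of the differences among the 73 changed sign, and the counts, shares and medians have no sign to change. The number of regions was 846 at a width of at least 1 kb, 1391 with neighbours within 2 kb joined, and 21730 where only exons of coding genes count as coding, which admits their introns. Taking the class with the most bases gave 76.3% lincRNA and 16.4% antisense; covered length gave 67.5% lincRNA; regions of at least 1 kb gave 69.0% lincRNA, 16.9% antisense and 6.74% processed transcript. The H3K36me3 overlap was 2.14% with 50% reciprocal overlap (difference from other regions -1.21 points), 6.29% within 1 kb, 7.99% in bins (difference -1.30), 10.5% at 1 kb or more, 3.15% without chromosome 4 (-5.00), 3.98% with central bases that occur once and 3.69% without the chromosome 4 window (-4.85). The H3K9me3 share of noncoding-only bins was 4.74% for bins that occur once (difference from coding bins 1.22 points), 4.70% over 1 kb from coding genes (1.19), 4.83% without chromosome 4 (1.30), 5.11% weighted to the G+C of coding bins (1.61) and 5.75% in long noncoding genes (2.25). At 1 kb or more the median width was 1400 bp, repeated central bases 14.1%, TGCCGC 8.98% and noncoding exons 31.8%. Repeated central bases fell to 8.21% without chromosome 4 and 8.08% without its window. With no coding gene within 1 kb, 0.0% lay within 1 kb of a coding start, as that choice fixes. The causes were otherwise not tested. The window, RefSeq and long-noncoding alternatives, and the differences under each setting, were added after seeing the data.

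Depth is unknown, and no library has a replicate. The lists do not separate WT from H3.3 G34R cells, so no change between them was analysed here. The threshold was a percentile, so the lists do not measure the amount of a mark. Repeats are not marked in the reference used here, and repeat families were not analysed. No paired analysis was possible because each group has 1 library and the lists pool the cell types.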
